A study of Homo sapiens with 12 samples.

Results

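The collagen chains were taken as every row of the deposited gene count table whose symbol is COL, a number, A, a number and nothing more. The rule found 44 chains of 28 collagen types among 63241 genes. RNA sequencing of polyadenylated transcripts had been done in T98G and U251, 2 established human glioblastoma cell lines. The 4 groups were T98G PEPD-OE, T98G NC, U251 PEPD-OE and U251 NC, with 3 libraries each and 12 in all. PEPD-OE stands for over-expression of PEPD, per the series title; NC is not spelled out in the labels, and neither the vector, the clone nor the time after its introduction is given in the sources used here. The labels do not say whether replicates were separate cultures, so p-values measure the spread between these libraries, which may be technical.

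Collagens are secreted or membrane-bound proteins in which 3 chains wind into a triple helix, and every type is built from its own chain or set of chains. Fibrillar collagens (such as types I, III, V, XI and XXVII) form cable-like fibrils, type IV forms the sheet of basement membranes, type VI forms beaded filaments near cells, and fibril-associated types such as IX, XII and XIV coat fibrils. PEPD, or prolidase, cuts dipeptides with proline or hydroxyproline at their end, a late step in collagen breakdown that returns proline to the cell. Normal brain tissue holds little fibrillar collagen outside its vessels and meninges, while glioblastomas can deposit several collagen types.

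The helix needs glycine as the first residue of every triplet, and the coding sequence shows it. A stretch is given for 1 chain each of types IV, VI and XII, all of which had called changes. Each line is 81 bases of the longest coding transcript in GENCODE 29, read 5′ to 3′ on the coding strand. Capitals mark the glycine codon that opens each triplet, and a glycine codon elsewhere in a triplet is in lower case. The stretches start at codons 43, 2168 and 2803.
COL4A1 (chromosome 13): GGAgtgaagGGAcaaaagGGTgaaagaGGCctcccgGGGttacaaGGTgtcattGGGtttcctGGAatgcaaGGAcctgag
COL6A3 (chromosome 2): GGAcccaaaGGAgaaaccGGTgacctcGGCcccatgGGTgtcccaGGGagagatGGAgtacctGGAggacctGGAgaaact
COL12A1 (chromosome 6): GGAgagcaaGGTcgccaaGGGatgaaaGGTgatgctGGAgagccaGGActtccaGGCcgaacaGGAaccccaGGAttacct
Runs of at least 5 such triplets covered 79.4% of the codons of COL4A1, against 10.5% of COL6A3 and 8.19% of COL12A1, whose products are mostly other domains. Proline codons made up 19.5% of the codons of COL4A1, 6.58% of COL6A3 and 8.59% of COL12A1. Over the 15 tested chains examined in this way, proline took between 6.58% (COL6A3) and 23.2% (COL4A5) of the codons, with a median of 16.7%.

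Upstream sequence is shown for COL4A1 and COL4A2, both called higher in U251 PEPD-OE cells, while in T98G COL4A1 alone was called, as lower. It is also shown for COL6A2 and COL12A1, both called higher in T98G PEPD-OE cells. COL4A1 and COL4A2 lie head to head on chromosome 13, with 126 bases between their RefSeq starts (GRCh38.p14). COL4A3 and COL4A4 are arranged the same way with 418 bases between starts, and COL4A5 and COL4A6 with 379. The short windows of COL4A1 and COL4A2 lie between the starts, where GENCODE 29 places first exons of some transcripts, and the longer stretches lie upstream of the starts in both annotations. Capitals mark CCAAT (the letters of the NF-Y box), GGGCGG (the core of an Sp1 box), TATAAA, or their reverse complements. All were searched on both strands, as was TGANTCA (the letters of an AP-1 site), and no matches printed here overlap.
COL4A1-COL4A2 first window (chr13:110307166-110307195, + strand): cgggccgagctccCCAATttgttggcgctg
COL4A1-COL4A2 second window (chr13:110307207-110307236, + strand): ccggcggtgcgcGGGCGGcgcctcaaaggg
COL6A2 upstream (chr21:46097862-46098096, + strand): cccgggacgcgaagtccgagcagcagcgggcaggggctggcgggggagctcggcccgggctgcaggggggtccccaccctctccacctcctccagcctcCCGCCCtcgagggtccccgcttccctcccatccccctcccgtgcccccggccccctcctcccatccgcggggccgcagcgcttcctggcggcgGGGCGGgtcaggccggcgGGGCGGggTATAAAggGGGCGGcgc
COL12A1 upstream (chr6:75206054-75206303, − strand): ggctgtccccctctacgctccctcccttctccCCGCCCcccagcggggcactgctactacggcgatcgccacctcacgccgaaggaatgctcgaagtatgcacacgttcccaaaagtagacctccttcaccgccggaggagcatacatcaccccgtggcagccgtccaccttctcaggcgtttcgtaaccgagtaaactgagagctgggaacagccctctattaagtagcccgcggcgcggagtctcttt
The upstream stretch of COL6A2 held GGGCGG 4 times and TATAAA 1 time, and that of COL12A1 held GGGCGG 1 time. RefSeq promoter windows of 300 bases were matched for 32 of the 44 chains, 15 of them among the tested chains described next. Of these 15, GGGCGG was in 12 (80.0%), CCAAT in 4 (26.7%), TATAAA in 3 and TGANTCA in 0. Among all 34943 promoter windows the shares were 44.9%, 34.6%, 11.6% and 7.72%. The windows of COL4A1 and COL4A2 overlap, so matches they share are counted for both chains. The window of COL6A3 held none of these motifs. Motif matches are a description of the letters, with no test.

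The libraries held 464056 to 924204 counts, the lowest being T98G NC replicate 1, so a count of 3 equals 3.20 to 6.33 CPM. CPM here means counts scaled to a library of 1000000 with TMM factors. PEPD itself averaged 164 ± 9.50 CPM in T98G PEPD-OE and 11 ± 8.20 CPM in T98G NC cells, and 175 ± 10.6 CPM in U251 PEPD-OE and 9.55 ± 3.44 CPM in U251 NC cells (SD, n = 3 each), in the direction of the labels. The strand setting used for counting is not given in the sources used here, and counts of some loci stood mostly under the gene on the opposite strand. BEST1, whose exons overlap those of the ferritin gene FTH1, averaged 67602 ± 2260 CPM in T98G PEPD-OE and 36238 ± 467 CPM in T98G NC cells, against 1361 ± 31.9 and 749 ± 7.43 CPM under FTH1 in those groups. Whether counts under a collagen gene come from its own strand therefore cannot be told apart, and levels, ranks, shares and changes describe the counts as deposited. Of the 44 chains, 9 share exon bases with a gene on the opposite strand, 4 of them among the tested chains (COL4A2, COL9A3, COL16A1 and COL18A1). Of the 9 markers of glioblastoma lines, VIM and CD44 were counted in every group, OLIG2 was at 0 in all, and T98G libraries nearly lacked neural stem markers: SOX2 had 1 count in T98G PEPD-OE and 1 in T98G NC cells, against 670 in U251 PEPD-OE and 912 in U251 NC cells. The summed level of 8 fibroblast and pericyte markers was 162 to 175 CPM in T98G PEPD-OE and 122 to 169 CPM in T98G NC libraries, and 52.7 to 62.1 CPM in U251 PEPD-OE and 92.8 to 104 CPM in U251 NC libraries. Within that list PDGFRB had 147 counts in T98G PEPD-OE and 98 in T98G NC cells but 1 in each U251 group, and THY1 had 165 in T98G PEPD-OE and 153 in T98G NC cells, 83 in U251 PEPD-OE and 127 in U251 NC cells. PDGFRA went the other way, with 11 counts in T98G PEPD-OE and 4 in T98G NC cells. In U251 PDGFRA had 36 counts in PEPD-OE and 68 in NC cells. DCN and LUM together had 1 count in T98G and 8 in U251. The 6 epithelial markers summed to 148 to 225 CPM in T98G PEPD-OE, 146 to 190 in T98G NC, 87.1 to 187 in U251 PEPD-OE and 130 to 183 in U251 NC libraries, through KRT8, KRT18 and CLDN4, with EPCAM at 0. The 7 macrophage and microglia markers summed to 5.70 to 60.8 CPM in T98G PEPD-OE and 0 to 63.7 in T98G NC libraries, mostly through PTPRC. In U251 they summed to 3.58 to 10.5 CPM in PEPD-OE and 2.56 to 10.3 in NC libraries. There PTPRC had 6 counts and CD68 7 in PEPD-OE cells, and PTPRC had 7 and CSF1R 5 in NC cells. C1QA was at 0 in all groups. The 6 endothelial markers reached at most 31.6 CPM in a library, with KDR at 31 counts in U251 PEPD-OE and 22 in U251 NC cells and VWF at 0. The part of these markers in the collagen values was not tested. In bulk libraries, fewer cells of a kind and less RNA per cell cannot be told apart.

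In T98G, PEPD-OE cells had higher CPM under COL1A2, COL5A1, COL5A2, the type VI chains COL6A1, COL6A2 and COL6A3, COL12A1, COL14A1 and COL18A1 than NC cells. CPM under COL4A1, COL7A1, COL13A1 and COL27A1 was lower. In U251, COL4A1 and COL4A2 were higher and COL1A2 was lower in PEPD-OE cells, and no other chain passed the test. Of the 44 chains, 21 passed the filter on low counts and were tested with edgeR's quasi-likelihood test; adjusted p-values are over all 8773 genes tested, and a change is called at an adjusted p under 0.05. In T98G, 13 of the 21 were called, 9 higher and 4 lower, where 32.3% of all tested genes were called (17.7% higher and 14.7% lower). In U251, 3 of the 21 were called, 2 higher and 1 lower, against a background of 8.55% (4.13% higher and 4.42% lower). The median log2 fold change of the 21 chains was 0.51 in T98G and -0.26 in U251, and that of all tested genes was 0.00 in both. PEPD-OE and NC libraries did not overlap for 13 chains in T98G, where this held for 43.5% of all tested genes, and for 6 chains in U251, where it held for 22.4%. With library totals alone in place of TMM factors, 7 chains were called higher and 5 lower in T98G. The median of all tested genes then lay at -0.21, and 1046 of the 8773 genes were called higher and 2067 lower. Among genes that share no exon base with the opposite strand, 12 chains were called in T98G and 2 in U251, of 17 tested, where 27.3% of the 4176 genes in that fit were called in T98G and 5.87% in U251.

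**Figure D1:**
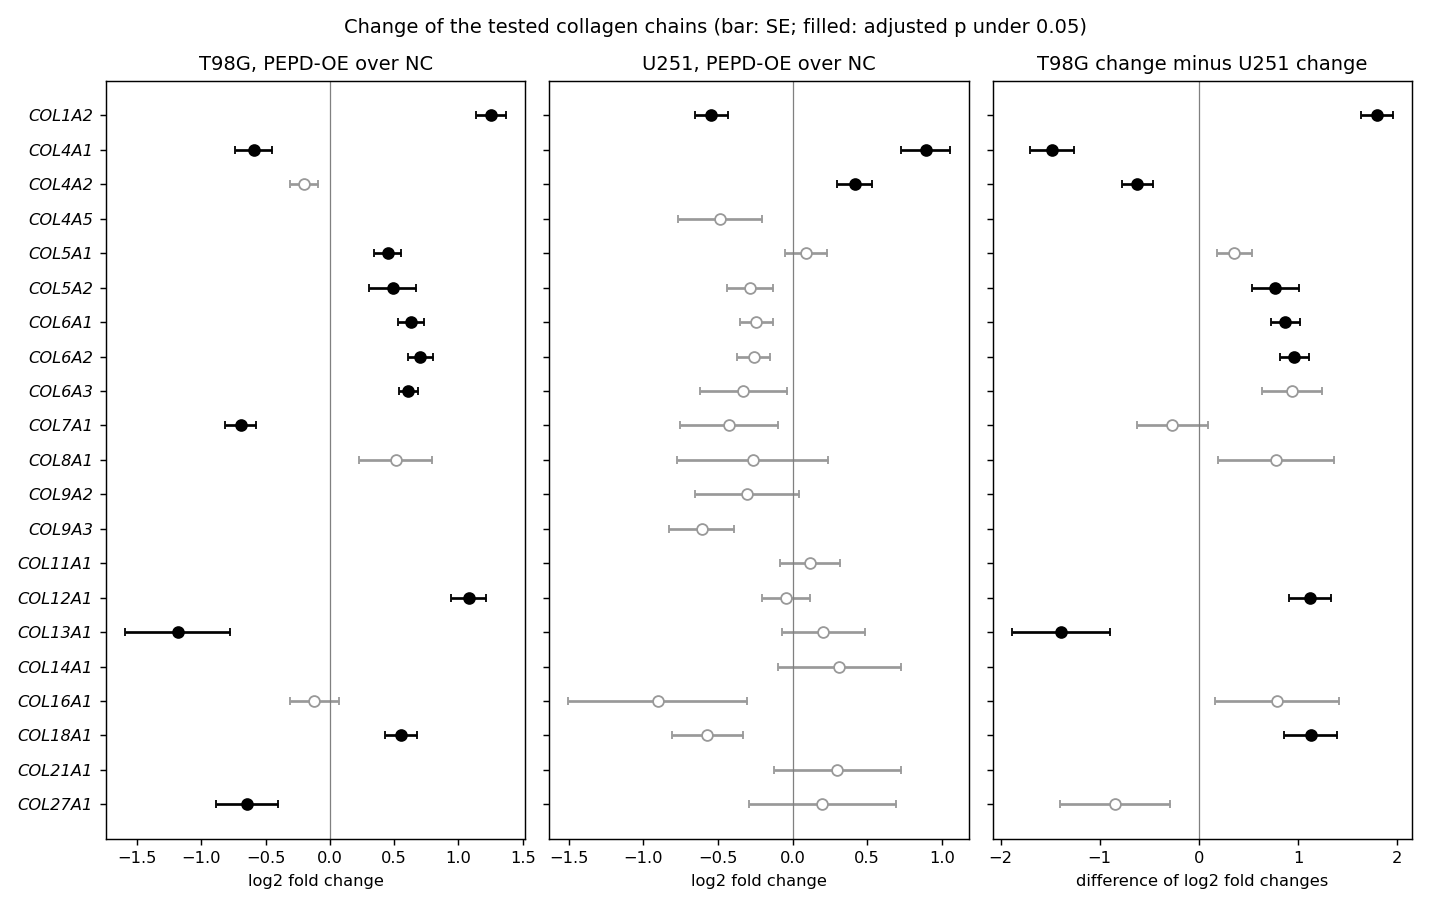
Log2 fold change (x axis) of the tested collagen chains (rows) for PEPD-OE over NC in each line (left, T98G; middle, U251) and the difference of the changes, T98G minus U251 (right); bars are standard errors, filled points passed an adjusted p of 0.05, and chains with almost no counts in a group of a panel are not drawn in it. COL1A2 had opposite changes in the lines, 1.25 in T98G and -0.55 in U251, and so had COL4A1, -0.59 in T98G and 0.89 in U251.

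Type VI collagen is assembled from 3 different chains, and all 3 rose in T98G PEPD-OE cells by similar amounts. COL6A1 (chr21:45981737-46005050, + strand, GRCh38), the α1 chain, had 1080, 1010 and 1161 CPM in T98G PEPD-OE and 679, 683 and 735 CPM in T98G NC libraries. COL6A2 (chr21:46098097-46132849, + strand), its neighbour coding for the α2 chain, had 1198, 1203 and 1353 CPM in T98G PEPD-OE and 755, 772 and 779 CPM in T98G NC libraries. COL6A3 (chr2:237324003-237414375, − strand), the large α3 chain, had 5902, 6254 and 6492 CPM in T98G PEPD-OE and 4271, 4008 and 3934 CPM in T98G NC libraries. For each of these chains every PEPD-OE library lay above every NC library. The log2 fold change was 0.63 for COL6A1 (SE 0.10, adjusted p = 4.07e-08), 0.70 for COL6A2 (SE 0.10, adjusted p = 3.02e-10) and 0.61 for COL6A3 (SE 0.08, adjusted p = 9.7e-12). COL6A3 ranked 11 among all genes by CPM in T98G PEPD-OE and 15 in T98G NC cells.

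In U251 the type VI chains did not pass the test. COL6A1 had 294, 287 and 255 CPM in U251 PEPD-OE and 278, 389 and 320 CPM in U251 NC libraries, which overlap (log2 fold change -0.24, SE 0.11, adjusted p = 0.174). COL6A2 had 212, 230 and 239 CPM in U251 PEPD-OE and 255, 290 and 275 CPM in U251 NC libraries, without overlap but not called (log2 fold change -0.26, SE 0.11, adjusted p = 0.136). COL6A3 was close to the floor in U251, with 12.1, 3.58 and 10.7 CPM in PEPD-OE and 10.8, 11.6 and 10.2 CPM in NC libraries. The change in T98G exceeded that in U251 by 0.87 for COL6A1 (SE 0.15, adjusted p = 4.79e-07) and by 0.96 for COL6A2 (SE 0.15, adjusted p = 1.74e-08). For COL6A3 the difference was 0.94 and was not called (SE 0.30, adjusted p = 0.0746). The other type VI chains were nearly or fully absent: COL6A5 had no count and COL6A6 had 4 over the 12 libraries.

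**Figure D2:**
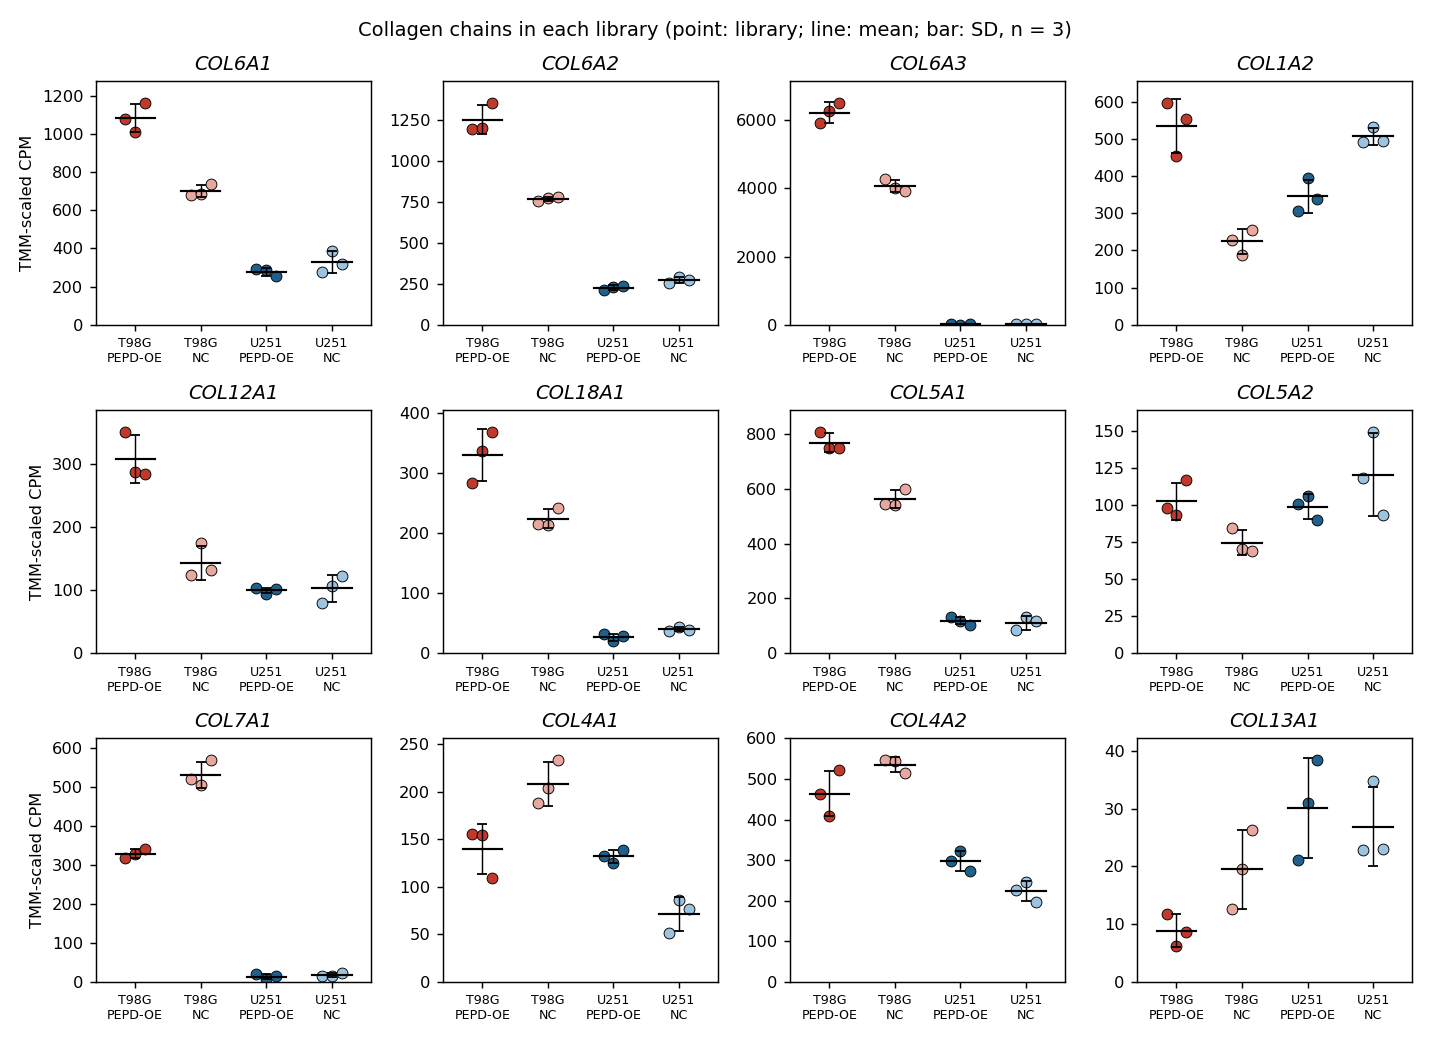
TMM-scaled CPM (y axis, each panel with its own scale from 0) of 12 collagen chains in each library of the 4 groups (x axis); points are libraries, lines are means and bars are SD over 3 libraries. COL6A1, COL6A2, COL6A3, COL1A2, COL12A1, COL18A1, COL5A1 and COL5A2 lie higher in T98G PEPD-OE than in T98G NC libraries, and COL7A1, COL4A1 and COL13A1 lie lower.

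Among fibrillar collagens, COL1A2 had the largest called change of a well-counted chain, and its direction was opposite in the lines. COL1A2 (chr7:94394561-94431232, + strand), the α2 chain of type I collagen, had 596, 453 and 553 CPM in T98G PEPD-OE and 228, 188 and 256 CPM in T98G NC libraries. In U251 it had 306, 394 and 339 CPM in PEPD-OE and 491, 533 and 496 CPM in NC libraries. The groups did not overlap in either line. Its log2 fold change was 1.25 in T98G (SE 0.12, adjusted p = 1.76e-18) and -0.55 in U251 (SE 0.11, adjusted p = 0.00011). The difference between these changes was 1.80 (SE 0.16, adjusted p = 1.59e-19). COL1A1, whose α1 chain pairs with the product of COL1A2 in type I collagen, had no more than 9 counts in any library and was not tested, with 19 counts in T98G PEPD-OE, 14 in T98G NC, 10 in U251 PEPD-OE and 19 in U251 NC cells.

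Type V collagen nucleates type I fibrils, and both of its counted chains rose in T98G. COL5A1 (chr9:134641774-134844843, + strand) had 808, 746 and 748 CPM in T98G PEPD-OE and 544, 542 and 598 CPM in T98G NC libraries, with no overlap (log2 fold change 0.45, SE 0.11, adjusted p = 0.000309). With library totals alone its call was lost (adjusted p = 0.0742). COL5A2 (chr2:189031896-189225312, − strand) had 97.6, 93.5 and 117 CPM in T98G PEPD-OE and 84.4, 70.2 and 69.0 CPM in T98G NC libraries, again with no overlap (log2 fold change 0.49, SE 0.18, adjusted p = 0.0265). The COL5A2 call was lost in 6 of 23 alternative settings, among them without T98G PEPD-OE replicate 3, T98G NC replicate 2 or T98G NC replicate 3, with adjusted p between 0.0642 and 0.257 in those 6. In U251, COL5A1 had 133, 119 and 105 CPM in PEPD-OE and 83.1, 131 and 119 CPM in NC libraries, and COL5A2 had 101, 106 and 89.7 CPM in PEPD-OE and 118, 149 and 93.5 CPM in NC libraries. Neither was called (adjusted p = 0.797 for COL5A1 and 0.296 for COL5A2). The T98G change exceeded the U251 change by 0.77 for COL5A2 (SE 0.24, adjusted p = 0.00797). That call was lost with library totals alone (adjusted p = 0.128) and without U251 NC replicate 2 (adjusted p = 0.0740). For COL5A1 the difference was 0.36 (adjusted p = 0.126). COL5A3, the remaining type V chain, had no count.

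Of the other fibrillar chains, COL27A1 (chr9:114155560-114312511, + strand), a cartilage fibril collagen, had 39.9, 40.5 and 38.5 CPM in T98G PEPD-OE and 88.6, 29.9 and 75.3 CPM in T98G NC libraries. It was called lower (log2 fold change -0.65, SE 0.24, adjusted p = 0.0302) although T98G NC replicate 2 lay below all 3 PEPD-OE libraries. The call was lost in 7 settings, among them without each T98G library in turn except T98G NC replicate 2, with adjusted p between 0.0593 and 0.261. In U251, COL27A1 had 7.53, 9.55 and 7.47 CPM in PEPD-OE and 7.22, 7.73 and 6.40 CPM in NC libraries, which overlap (log2 fold change 0.20, SE 0.49, adjusted p = 0.880). COL3A1, the sole chain of type III collagen, had 7, 7 and 12 counts in T98G PEPD-OE libraries and 0 in the other 9 libraries. It did not pass the filter. Against a floor of 3 counts over the group it was 8.76-fold higher in T98G PEPD-OE than in T98G NC cells, and 10.5-fold higher in T98G PEPD-OE than in U251 PEPD-OE cells. Folds against this floor leave out the counting error of the higher group. In the fit without a filter on low counts COL3A1 had an adjusted p of 1.5e-05 for PEPD-OE over NC in T98G. COL11A1, the α1 chain of type XI collagen of cartilage and of the vitreous, was counted almost only in U251, with 73.8, 70.4 and 49.1 CPM in PEPD-OE and 59.0, 65.7 and 51.2 CPM in NC libraries (log2 fold change 0.12, SE 0.20, adjusted p = 0.820). It had 0 counts in T98G PEPD-OE and 1 in T98G NC cells.

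COL4A1, the α1 chain of the type IV collagen of basement membranes, changed in the opposite direction to COL1A2 in each line. COL4A1 (chr13:110148963-110307233, − strand) had 155, 154 and 110 CPM in T98G PEPD-OE and 188, 204 and 233 CPM in T98G NC libraries. In U251, COL4A1 had 133, 125 and 139 CPM in PEPD-OE and 51.8, 86.3 and 76.9 CPM in NC libraries. The groups were separate in both lines, below NC in T98G and above NC in U251. Its log2 fold change was -0.59 in T98G (SE 0.15, adjusted p = 0.00048) and 0.89 in U251 (SE 0.16, adjusted p = 1.58e-05), and the difference was -1.48 (SE 0.22, adjusted p = 5.96e-09). COL4A2 (chr13:110305812-110513209, + strand), the head-to-head neighbour whose chain joins the product of COL4A1 in a common trimer, had 463, 408 and 521 CPM in T98G PEPD-OE and 547, 544 and 514 CPM in T98G NC libraries, which overlap. In U251, COL4A2 had 297, 324 and 273 CPM in PEPD-OE and 225, 246 and 197 CPM in NC libraries, which do not. Its log2 fold change was -0.20 in T98G (SE 0.11, adjusted p = 0.149) and 0.42 in U251 (SE 0.12, adjusted p = 0.0112), with a difference of -0.62 (SE 0.16, adjusted p = 0.00122). The T98G value passed the test with library totals alone (-0.42, adjusted p = 0.000916) and when T98G was fitted alone (-0.23, adjusted p = 0.0343). The U251 call was lost without U251 PEPD-OE replicate 2 (adjusted p = 0.109) and without U251 NC replicate 3 (adjusted p = 0.131). COL4A2 shares 14 exon bases with COL4A2-AS2 and 81 with COL4A2-AS1, which had 5 and 7 counts over the 12 libraries, against 3285 under COL4A2. With the strand setting unknown, these counts do not show how many reads each gene gave.

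The remaining type IV chains, known from kidney, lens and other specialised basement membranes, were low and mostly in U251. COL4A5 (chrX:108439844-108697545, + strand) had 28.6, 23.9 and 23.5 CPM in U251 PEPD-OE and 34.9, 41.2 and 29.5 CPM in U251 NC libraries. These groups did not overlap but the change was not called (log2 fold change -0.49, SE 0.28, adjusted p = 0.337). In T98G it had 4 counts in PEPD-OE and 2 in NC cells. COL4A6, its head-to-head partner, had 20 counts in U251 PEPD-OE and 15 in U251 NC cells and 0 in both T98G groups. COL4A3 had 14 counts in U251 PEPD-OE and 12 in U251 NC cells, and COL4A4 had 12 in U251 PEPD-OE and 11 in U251 NC cells.

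Type VII collagen, which anchors epithelial basement membranes to the tissue below, was the well-counted chain that fell most in T98G. COL7A1 (chr3:48564073-48595267, − strand) had 317, 327 and 340 CPM in T98G PEPD-OE and 519, 504 and 568 CPM in T98G NC libraries, with no overlap (log2 fold change -0.69, SE 0.12, adjusted p = 2.43e-07). In U251 it had 19.6, 5.97 and 13.9 CPM in PEPD-OE and 15.6, 14.2 and 21.8 CPM in NC libraries, which overlap (log2 fold change -0.43, SE 0.33, adjusted p = 0.517). The difference between the lines was -0.27 and was not called (SE 0.36, adjusted p = 0.630).

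Of the fibril-associated chains, COL12A1 rose in T98G. COL12A1 (chr6:75084326-75206051, − strand), whose product links fibrils of tendon and other loaded tissues, had 351, 287 and 284 CPM in T98G PEPD-OE and 125, 174 and 132 CPM in T98G NC libraries. The groups did not overlap (log2 fold change 1.08, SE 0.14, adjusted p = 1.53e-11). In U251, COL12A1 had 102, 94.3 and 101 CPM in PEPD-OE and 79.5, 107 and 122 CPM in NC libraries (log2 fold change -0.04, SE 0.16, adjusted p = 0.923). The T98G change exceeded the U251 change by 1.12 (SE 0.21, adjusted p = 5.3e-06).

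COL14A1 (chr8:120059780-120372036, + strand), a relative of COL12A1, was called higher in T98G on few counts, 6 in PEPD-OE and 0 in NC cells (adjusted p = 0.0266). Against 3 counts over the group this is a rise of 2.02-fold, which leaves out the counting error of the 6 counts. The call was lost in 6 settings with adjusted p between 0.0524 and 0.0974, among them without T98G PEPD-OE replicate 2 and without each T98G NC replicate. In U251, COL14A1 had 10.5, 19.1 and 14.9 CPM in PEPD-OE and 12, 15.5 and 8.97 CPM in NC libraries (adjusted p = 0.746). COL16A1 (chr1:31652247-31704319, − strand), found near fibrils in skin and other tissues, had 82.8, 84.1 and 68.4 CPM in T98G PEPD-OE and 95, 76.7 and 86.6 CPM in T98G NC libraries (log2 fold change -0.12, SE 0.19, adjusted p = 0.676). In U251 it had 3.01, 3.58 and 3.20 CPM in PEPD-OE and 2.41, 7.73 and 8.97 CPM in NC libraries (adjusted p = 0.417).

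Type IX collagen decorates cartilage fibrils of type II, and its chains were counted in U251. COL9A3 (chr20:62816244-62841159, + strand) had 37.7, 44.2 and 48.1 CPM in U251 PEPD-OE and 90.3, 63.1 and 46.1 CPM in U251 NC libraries. These overlap through U251 NC replicate 3, and the change was not called (log2 fold change -0.61, SE 0.22, adjusted p = 0.0584). Without that library the value was -0.81 (adjusted p = 0.0203). The chain was also called lower with RLE scaling (adjusted p = 0.0452), with U251 fitted alone (adjusted p = 0.0464) and without mitochondrial genes, MALAT1, TALAM1 and BEST1 (adjusted p = 0.0401). Over the alternative settings that tested it, its adjusted p lay between 0.0203 and 0.580. The fit of genes without opposite-strand exon overlap did not hold it. COL9A2 (chr1:40300487-40317813, − strand) had 12.1, 21.5 and 19.2 CPM in U251 PEPD-OE and 18.1, 25.8 and 23.1 CPM in U251 NC libraries (log2 fold change -0.30, SE 0.35, adjusted p = 0.700). COL9A1 had no count, and COL2A1, the chain of type II collagen, had 2 counts in all. COL21A1 (chr6:56056590-56394094, − strand), a fibril-associated chain, had 19.6, 13.1 and 11.7 CPM in U251 PEPD-OE and 16.9, 7.73 and 10.2 CPM in U251 NC libraries (adjusted p = 0.769).

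COL18A1 (chr21:45405137-45513720, + strand) codes for the chain of a basement membrane proteoglycan whose tail is endostatin. COL18A1 had 284, 337 and 369 CPM in T98G PEPD-OE and 215, 214 and 242 CPM in T98G NC libraries, with no overlap (log2 fold change 0.55, SE 0.13, adjusted p = 0.00018). In U251 it had 31.6, 20.3 and 28.8 CPM in PEPD-OE and 37.3, 43.8 and 38.4 CPM in NC libraries, lower without overlap but not called (log2 fold change -0.57, SE 0.24, adjusted p = 0.124). The difference was 1.13 (SE 0.27, adjusted p = 0.000426). COL18A1 shares 1401 exon bases with SLC19A1, the folate carrier gene on the other strand, which moved the same way in T98G. SLC19A1 averaged 72.7 ± 4.18 CPM in T98G PEPD-OE and 48.3 ± 7.13 CPM in T98G NC cells (SD, n = 3 each; log2 fold change 0.60, SE 0.22, adjusted p = 0.0266), so reads of these genes cannot be told apart where they overlap.

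COL13A1 and COL8A1 were counted at low levels. COL13A1 (chr10:69801867-69964275, + strand), a transmembrane collagen of cell adhesions and of the neuromuscular junction, had 11.8, 6.23 and 8.55 CPM in T98G PEPD-OE and 12.7, 19.5 and 26.3 CPM in T98G NC libraries, without overlap (log2 fold change -1.18, SE 0.41, adjusted p = 0.0173). In U251 it had 21.1, 31.0 and 38.4 CPM in PEPD-OE and 22.9, 34.8 and 23.1 CPM in NC libraries (adjusted p = 0.753), and the difference between the lines was -1.39 (SE 0.50, adjusted p = 0.0247). The T98G call was lost in 4 settings, with DESeq2 and without T98G PEPD-OE replicate 2, T98G PEPD-OE replicate 3 or T98G NC replicate 3 (adjusted p 0.0513 to 0.165), and the call on the difference in 8 (adjusted p 0.0531 to 0.143), among them without those libraries and without U251 PEPD-OE replicate 3, U251 NC replicate 1 or U251 NC replicate 3. COL8A1 (chr3:99638475-99799226, + strand), a short chain of hexagonal networks under endothelia, had 44.4, 42.1 and 37.0 CPM in T98G PEPD-OE and 23.2, 24.7 and 36.4 CPM in T98G NC libraries. Its groups did not overlap, but the change was not called (log2 fold change 0.51, SE 0.28, adjusted p = 0.163). In U251, COL8A1 had 7.53, 10.7 and 2.14 CPM in PEPD-OE and 10.8, 3.86 and 8.97 CPM in NC libraries (adjusted p = 0.838).

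The change under PEPD over-expression differed between the lines for 9 of the 21 chains, where 27.7% of all tested genes differed (14.1% higher and 13.6% lower). It was higher in T98G for COL1A2, COL5A2, COL6A1, COL6A2, COL12A1 and COL18A1, and lower in T98G for COL4A1, COL4A2 and COL13A1. The median difference was 0.78 over the 21 chains and -0.02 over all tested genes.

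The lines themselves differed in nearly every tested chain. The T98G NC and U251 NC libraries differed in 20 of 21 chains, 12 higher and 8 lower in T98G, where 48.7% of all tested genes were called (24.4% higher and 24.3% lower). Among PEPD-OE cells, T98G and U251 differed in 19 chains, 12 higher and 7 lower in T98G, where 52.6% were called (26.3% in each direction). The libraries of the lines did not overlap for those 20 chains among NC cells (background 55.1%, 27.7% higher and 27.4% lower) and those 19 among PEPD-OE cells (background 55.9%, 27.6% higher and 28.3% lower). Each line is a single cell line, so the comparison is between these lines and not between kinds of glioblastoma.

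The chains with higher CPM in T98G were those of types VI, VII, VIII, XVI, XVIII and XXVII, with COL4A1, COL4A2, COL5A1 and COL12A1 among NC cells. COL6A3 stood furthest apart, with a log2 difference of T98G over U251 of 9.47 in PEPD-OE (SE 0.14, adjusted p = 2.54e-115) and 8.52 in NC cells (SE 0.13, adjusted p = 3.05e-110). COL7A1 followed, with 4.67 in PEPD-OE (SE 0.20, adjusted p = 4.82e-52) and 4.94 in NC cells (SE 0.18, adjusted p = 2.93e-60). In U251, COL6A3 had 21 counts in PEPD-OE and 26 in NC cells, and COL7A1 had 31 and 41. The SE of these differences can therefore lie below the counting error. COL16A1 was higher by 4.51 in PEPD-OE (adjusted p = 4.91e-25) and 3.72 in NC cells (adjusted p = 3.16e-23), and COL18A1 by 3.62 in PEPD-OE (adjusted p = 2.01e-45) and 2.49 in NC cells (adjusted p = 8.25e-30). Lower but similar in direction were COL5A1, at 2.70 in PEPD-OE and 2.34 in NC cells, COL6A2, at 2.46 in PEPD-OE and 1.49 in NC cells, and COL6A1, at 1.96 in PEPD-OE and 1.09 in NC cells. COL27A1 was higher in T98G by 2.25 in PEPD-OE and 3.09 in NC cells, and COL8A1 by 2.61 in PEPD-OE and 1.83 in NC cells. COL12A1 was higher by 1.63 in PEPD-OE (adjusted p = 2.66e-21) and 0.50 in NC cells (adjusted p = 0.00414); without T98G NC replicate 2 or U251 NC replicate 1 the NC difference was not called (adjusted p = 0.130 and 0.0900).

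For a few chains the difference between the lines was not alike in PEPD-OE and NC cells. COL1A2 was higher in T98G by 0.62 in PEPD-OE cells (SE 0.11, adjusted p = 4.66e-07) but lower in T98G in NC cells (log2 difference -1.18, SE 0.12, adjusted p = 2.61e-17). COL4A1 did not differ between lines beyond its error in PEPD-OE cells (0.07, SE 0.15, adjusted p = 0.705), and was higher in T98G by 1.56 in NC cells (SE 0.16, adjusted p = 5.18e-17). COL4A2 was higher in T98G by 0.64 in PEPD-OE (adjusted p = 2.71e-07) and 1.26 in NC cells (adjusted p = 7.52e-20). COL5A2 was close to equal in PEPD-OE cells (0.06, SE 0.17, adjusted p = 0.781) and lower in T98G in NC cells (-0.71, SE 0.17, adjusted p = 0.000211). COL13A1 was lower in T98G in PEPD-OE cells (-1.78, SE 0.37, adjusted p = 1.23e-05), with no call in NC cells (-0.39, SE 0.31, adjusted p = 0.312).

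A second set of chains was counted in U251 and nearly absent in T98G, and COL11A1, COL9A2 and COL9A3 among them are known from cartilage. COL27A1, also a cartilage fibril collagen, was higher in T98G, as given above. Against a floor of 3 counts over the group, COL11A1 was 42.5-fold lower in T98G PEPD-OE than in U251 PEPD-OE cells. It was 120-fold lower in T98G NC than in U251 NC cells on 1 against 140 counts (exact 95% counting interval 21.1 to 4759). COL9A2, with 0 counts in T98G, was 12.2-fold lower among PEPD-OE cells and 15.1-fold lower among NC cells against that floor. COL9A3 had 4 counts in T98G PEPD-OE against 107 in U251 PEPD-OE cells (log2 difference -4.35, adjusted p = 2.34e-15), and 2 in T98G NC against 160 in U251 NC cells, which is 68.4-fold lower (interval 18.6 to 569). COL9A3 shares 45 exon bases with TCFL5 on the other strand, which had 101 counts in all. With the strand setting unknown, these do not show how many reads TCFL5 gave. COL4A5 was lower in T98G in PEPD-OE cells (log2 difference -3.55, adjusted p = 5.27e-09) and 35.9-fold lower in NC cells (interval 9.63 to 301). COL21A1 was 29-fold lower in T98G PEPD-OE cells on 1 against 35 counts (interval 4.87 to 1178). Against the floor of 3 counts it was 7.98-fold lower in T98G NC cells. COL14A1 was lower in T98G PEPD-OE cells (-2.28, SE 0.58, adjusted p = 0.000446) and, against that floor, 8.26-fold lower in T98G NC cells.

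**Figure D3:**
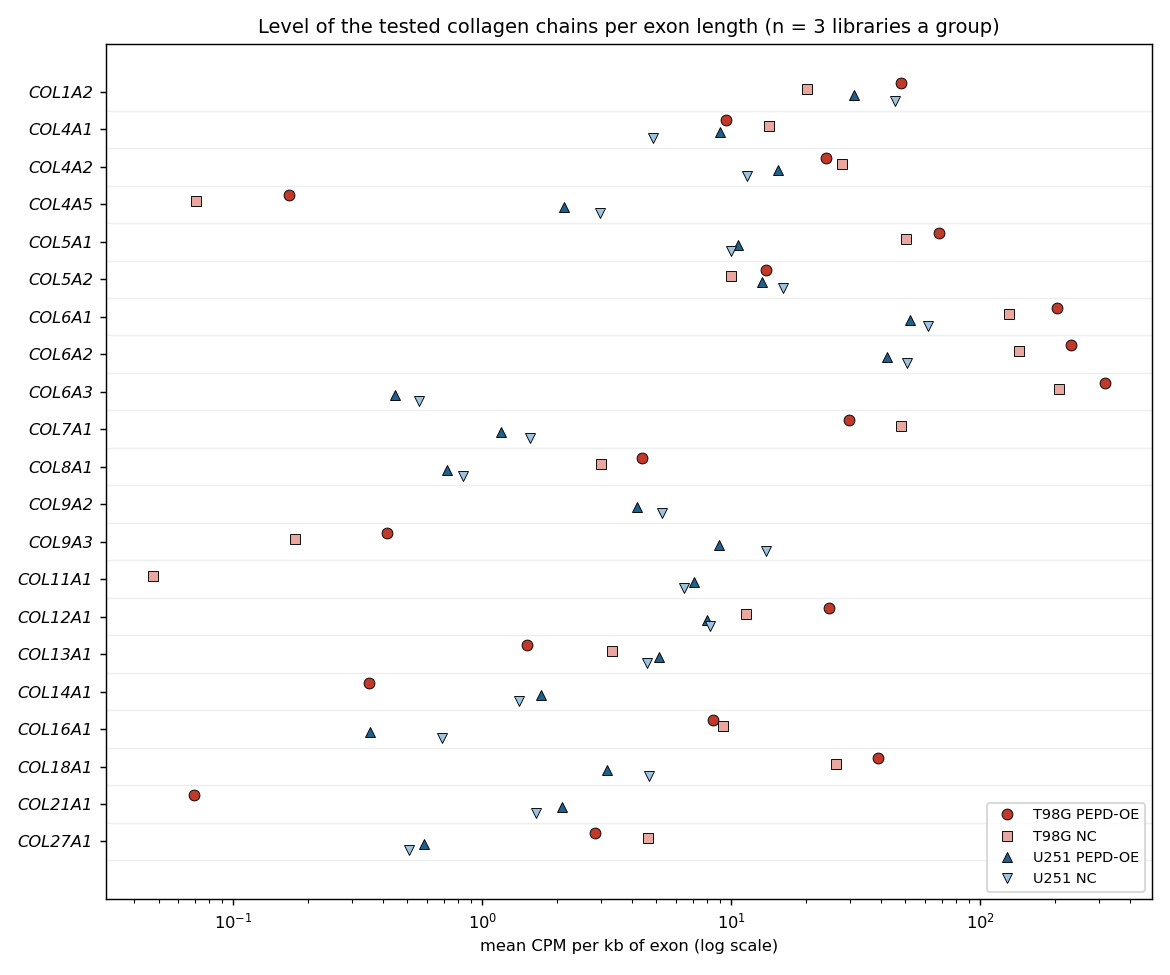
Mean level per exon length (x axis, CPM per kb of exon, log scale; n = 3 libraries a group) of the tested chains (rows) in the 4 groups; groups at 0 are not drawn. The type VI chains are highest in T98G, and COL6A3, at 317 CPM per kb in T98G PEPD-OE and 207 in T98G NC cells, lies below 1 CPM per kb in both U251 groups.

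Levels can be set side by side only per length. On the scale of CPM per kb of exon, COL6A3 was the most abundant chain in T98G, at 317 ± 15.1 in PEPD-OE and 207 ± 9.02 in NC cells. COL6A2 followed at 232 ± 16.4 in T98G PEPD-OE and 143 ± 2.24 in T98G NC cells, and COL6A1 at 203 ± 14.2 in T98G PEPD-OE and 131 ± 5.81 in T98G NC cells; the NC levels of COL6A1 and COL6A2 are separated by little more than their spread. In U251 the order began with COL6A1, at 52.1 ± 3.84 in PEPD-OE and 61.6 ± 10.5 in NC cells, then COL6A2, at 42.2 ± 2.53 in PEPD-OE and 50.8 ± 3.23 in NC cells, and COL1A2, at 31.0 ± 3.99 in PEPD-OE and 45.4 ± 2.07 in NC cells (SD, n = 3 each). This order turns with the length used. Per kb of the longest transcript, COL6A1 and COL6A2 were both at 65.7 and COL1A2 at 57.8 in U251 PEPD-OE, while in U251 NC cells COL1A2 came first at 84.6, then COL6A2 at 79 and COL6A1 at 77.7.

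All 44 chains together took 1.05 ± 0.0518% of the counts of a library in T98G PEPD-OE, 0.855 ± 0.0149% in T98G NC, 0.193 ± 0.0106% in U251 PEPD-OE and 0.200 ± 0.0220% in U251 NC cells. COL6A3 alone took 0.554 ± 0.0335% in T98G PEPD-OE and 0.421 ± 0.0133% in T98G NC cells. Without COL6A3 the share was 0.492 ± 0.0265% in T98G PEPD-OE and 0.434 ± 0.0205% in T98G NC cells, still above U251, at 0.192 ± 0.0110% in PEPD-OE and 0.199 ± 0.0220% in NC cells (SD, n = 3 each). These sums were not tested.

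The make-up of the collagen counts differed by line and by group. Type VI took 72.9 ± 1.36% of the collagen counts in T98G PEPD-OE, 67.1 ± 1.32% in T98G NC, 26.9 ± 0.592% in U251 PEPD-OE and 29.2 ± 1.19% in U251 NC cells. Type IV took 5.19 ± 0.246% in T98G PEPD-OE and 9.04 ± 0.248% in T98G NC cells, but 24.8 ± 0.461% in U251 PEPD-OE and 16.5 ± 0.277% in U251 NC cells. Type I took 4.63 ± 0.584% in T98G PEPD-OE and 2.78 ± 0.380% in T98G NC cells, but 18.2 ± 1.89% in U251 PEPD-OE and 24.6 ± 1.08% in U251 NC cells. Thus type I exceeded type IV in U251 NC cells and type IV exceeded type I in the other groups. Type VII took 2.80 ± 0.0457% in T98G PEPD-OE and 6.42 ± 0.362% in T98G NC cells, and under 1% in both U251 groups. Long genes give more counts, so these shares are shares of counts and not of molecules.

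**Figure D4:**
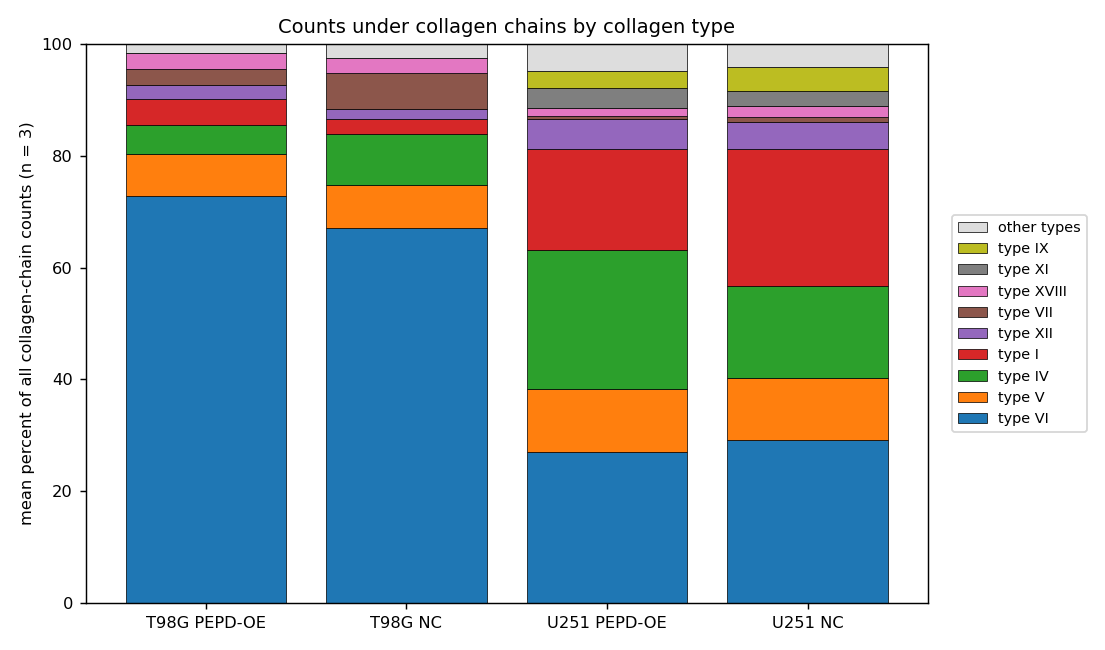
Mean percent of all collagen-chain counts (y axis, n = 3 libraries) by collagen type (colours) in the 4 groups (x axis). Type VI fills 72.9% of the bar of T98G PEPD-OE and 67.1% of that of T98G NC, against 26.9% in U251 PEPD-OE and 29.2% in U251 NC, where types I and IV fill much of the rest.

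Chains of a common trimer were also compared within libraries, as ratios of CPM per kb where both had at least 10 counts. The COL6A2 to COL6A1 ratio was 1.15 ± 0.0415 in T98G PEPD-OE and 1.09 ± 0.0359 in T98G NC cells, and 0.815 ± 0.107 in U251 PEPD-OE and 0.834 ± 0.0872 in U251 NC cells. COL6A3 to COL6A1 was 1.56 ± 0.106 in T98G PEPD-OE and 1.59 ± 0.127 in T98G NC cells, so the relative amounts of the type VI chains in T98G differed between PEPD-OE and NC by no more than about their spread. COL5A2 to COL5A1 was 0.201 ± 0.0289 in T98G PEPD-OE and 0.200 ± 0.0302 in T98G NC cells, against 1.26 ± 0.10 in U251 PEPD-OE and 1.67 ± 0.478 in U251 NC cells. COL4A2 to COL4A1 was 2.64 ± 0.865 in T98G PEPD-OE and 1.98 ± 0.274 in T98G NC cells, and 1.73 ± 0.234 in U251 PEPD-OE and 2.49 ± 0.731 in U251 NC cells (SD, n = 3 each). The absolute ratios depend on the exon length used.

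The 23 chains that did not pass the filter included 7 with no count in any library (COL5A3, COL6A5, COL9A1, COL15A1, COL20A1, COL22A1 and COL25A1). The others had 1 to 62 counts over the 12 libraries, and no more than 12 in any library. COL17A1, a transmembrane collagen of epithelial hemidesmosomes, had 16 counts in U251 PEPD-OE and 15 in U251 NC cells, against 1 in T98G PEPD-OE and 3 in T98G NC cells. COL11A2 had 19, COL10A1 25, COL24A1 11, COL8A2 6, COL19A1 6, COL28A1 4, COL23A1 2 and COL26A1 1 count over all libraries. In the fit without a filter, which took in the 16 counted chains of this set, 4 differed between the lines among PEPD-OE cells, where 20.8% of all 25902 genes in that fit were called, and 2 among NC cells, where 17.8% were. COL17A1 was 13.3-fold lower in T98G PEPD-OE than in U251 PEPD-OE cells (exact 95% counting interval 2.06 to 556, adjusted p = 0.00816). Against a floor of 3 counts over the group, COL4A6 was 5.52-fold lower in T98G among PEPD-OE cells (adjusted p = 0.000148) and 4.27-fold lower among NC cells (adjusted p = 0.00123). COL4A4 was 9.94-fold lower in T98G among PEPD-OE cells (interval 1.47 to 425, adjusted p = 0.0418), and COL4A3 was 10.3-fold lower in T98G among NC cells (interval 1.52 to 438, adjusted p = 0.0412). COL3A1, given above, was higher in T98G among PEPD-OE cells (adjusted p = 1.47e-06), and for PEPD-OE over NC it was the single call of this set in T98G, where 10.2% of all genes in that fit were called.

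The machinery that makes and handles collagen was counted from lists of genes outside the family. In T98G, 6 of 18 tested genes of collagen hydroxylation and folding were higher and 0 lower, and 9 of 14 genes of secretion, propeptide removal and crosslinking were higher and 0 lower, where 17.7% of all tested genes were higher and 14.7% lower. In U251, where 4.13% of all tested genes were higher and 4.42% lower, edgeR called 1 gene of the secretion list (lower) and 0 of the hydroxylation list, in which 1 gene had an unadjusted p under 0.05. The median log2 fold change of the secretion and crosslinking list was 0.82 in T98G and 0.00 in U251, and that of the hydroxylation and folding list 0.24 in T98G and -0.21 in U251, beside 0.00 for all tested genes in both. The change differed between the lines for 7 hydroxylation and folding genes, 6 higher and 1 lower in T98G, and for 8 secretion and crosslinking genes, all higher in T98G, beside 14.1% of all tested genes higher and 13.6% lower.

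Among hydroxylation genes, P4HA2, a catalytic subunit of prolyl 4-hydroxylase, averaged 45.7 ± 7.70 CPM in T98G PEPD-OE and 21 ± 7.35 CPM in T98G NC cells (log2 fold change 1.17, SE 0.29, adjusted p = 0.000655). P4HA1, the other main catalytic subunit, averaged 52.0 ± 1.1 CPM in T98G PEPD-OE and 32.8 ± 8.20 CPM in T98G NC cells (0.72, SE 0.25, adjusted p = 0.0160). P3H1, a prolyl 3-hydroxylase, averaged 89.5 ± 11.6 CPM in T98G PEPD-OE and 60.7 ± 7.79 CPM in T98G NC cells (0.59, SE 0.20, adjusted p = 0.0125). COL1A2 and the type VI chains, described above, were higher in the same libraries. In the secretion and crosslinking list, LOX, the lysyl oxidase that starts crosslinks, averaged 320 ± 8.28 CPM in T98G PEPD-OE and 142 ± 11.7 CPM in T98G NC cells (1.17, SE 0.14, adjusted p = 3.83e-13). MIA3, which loads collagen into transport carriers, averaged 470 ± 100 CPM in T98G PEPD-OE and 215 ± 14.8 CPM in T98G NC cells (1.14, SE 0.12, adjusted p = 1.48e-14). SEC23A, a subunit of the carrier coat, averaged 36.0 ± 3.61 CPM in T98G PEPD-OE and 16.1 ± 6.05 CPM in T98G NC cells (1.19, SE 0.32, adjusted p = 0.00145). P4HA1, P4HA2, LOX, MIA3 and SEC23A each share exon bases with a gene on the other strand, so their counts are uncertain. In U251 the single call was SPARC, a collagen-binding matrix protein, at 829 ± 31.0 CPM in PEPD-OE and 1093 ± 70.3 CPM in NC cells (-0.40, SE 0.09, adjusted p = 0.000773). SPARC too shares exon bases with a gene on the other strand.

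Collagen receptors had 2 genes higher and 2 lower of 7 tested in T98G, against 17.7% higher and 14.7% lower among all tested genes. MRC2, an endocytic collagen receptor, averaged 218 ± 0.993 CPM in T98G PEPD-OE and 98.4 ± 3.34 CPM in T98G NC cells (1.14, SE 0.15, adjusted p = 4.4e-11), and ITGA11, an integrin subunit for fibrillar collagen, averaged 51.4 ± 12.6 CPM in T98G PEPD-OE and 24.6 ± 4.73 CPM in T98G NC cells (1.06, SE 0.31, adjusted p = 0.00439). DDR2, a receptor kinase for fibrillar collagen, was opposite in the lines, like COL4A1. It averaged 33.9 ± 9.69 CPM in T98G PEPD-OE and 62.2 ± 7.06 CPM in T98G NC cells (-0.89, SE 0.24, adjusted p = 0.00146), and 40.0 ± 9.80 CPM in U251 PEPD-OE and 21.8 ± 2.31 CPM in U251 NC cells (0.84, SE 0.27, adjusted p = 0.0283). The difference for DDR2 was -1.73 (SE 0.36, adjusted p = 3.5e-05). MRC2 shares exon bases with genes on the other strand, so its counts are uncertain.

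Of 14 tested genes of collagen breakdown and proline recycling, 6 were higher and 3 lower in T98G, PEPD among the higher, and PEPD was the 1 call in U251, where 8.55% of all tested genes were called against 32.3% in T98G. MMP13, a collagenase, averaged 62.9 ± 7.27 CPM in T98G PEPD-OE and 137 ± 5.67 CPM in T98G NC cells (-1.12, SE 0.18, adjusted p = 9.53e-08) and had no count in U251. CTSB, a lysosomal protease, averaged 180 ± 18.4 CPM in T98G PEPD-OE and 85.3 ± 12.1 CPM in T98G NC cells (1.06, SE 0.16, adjusted p = 4.46e-09). Of 20 tested regulators of collagen genes, 6 were higher and 4 lower in T98G (17.7% and 14.7% of all tested genes) and 2 were higher in U251 (4.13% of all tested genes). TGFB2, a growth factor that raises fibrillar collagen in many cells, averaged 97.7 ± 14.5 CPM in T98G PEPD-OE and 23.3 ± 7.07 CPM in T98G NC cells (2.05, SE 0.24, adjusted p = 2.27e-13). HIF1A rose by 1.54 (SE 0.18, adjusted p = 6.69e-13) and CEBPB by 1.45 (SE 0.16, adjusted p = 2.43e-13) in T98G, and both share exon bases with an antisense gene. In U251 the calls were CCN2, a matrix growth factor, at 492 ± 49.2 CPM in PEPD-OE and 99.7 ± 10.8 CPM in NC cells (2.30, SE 0.13, adjusted p = 1.44e-34), and EGR1, an immediate early factor, at 42.6 ± 0.401 CPM in PEPD-OE and 8.83 ± 2.35 CPM in NC cells (2.26, SE 0.33, adjusted p = 1.92e-08). CCN2 shares exon bases with a gene on the other strand, so its counts are uncertain. Values in parentheses here are log2 fold changes, and SD are over 3 libraries.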

How the data were processed

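The labels' protocols describe poly(A) capture of RNA from T98G and U251 cells, dUTP marking of the second cDNA strand and paired-end NovaSeq sequencing. GRCh38, HISAT2, featureCounts, Subread, fastp and FastQC are listed in the submitters' processing notes, without version or role; which annotation and which strand option were used for counting is not given in the sources used here. Raw counts per gene (63241 rows) were deposited by the authors, and the values show no normalization. Library names in the labels gave each column its sample. GENCODE 29 held 58228 of the identifiers (92.1%) and gave positions and exon lengths (the union of all exons). RefSeq promoter windows (GRCh38.p14) gave upstream sequence.

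Testing used edgeR 4.0.16 in R 4.3.3. After filterByExpr with a minimum count of 10 and TMM scaling, all 12 libraries entered 1 quasi-likelihood fit (robust, a mean for each group, 8 residual degrees of freedom). All 8773 tested genes entered the Benjamini-Hochberg adjustment of the two-sided p-values. The contrasts were PEPD-OE over NC within each line, the difference of these, and T98G over U251 among PEPD-OE and among NC cells; contrasts share libraries. SE is the absolute log2 fold change over the square root of F, and can lie below the counting error where counts are few. Where a group had 0 counts, folds are against 3 counts over the group and leave out the counting error of the other group. With 1 to 3 counts they are ratios with exact 95% intervals, which cover counting error only. An exact two-sided test of 3 against 3 libraries cannot give a p below 0.1, so no test was run on single values outside the model.

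Members, gene lists and tests were chosen with earlier results of these data known. Every chain that passed the filter is named with the values of its libraries, apart from groups with almost no counts, which are given as sums; of the pathway lists, up to 3 called genes per list and line with the largest change are named. Genes named for their overlap with another gene (BEST1 and SLC19A1 among them) are outside this rule and were picked once values were known. Alternatives were other scalings, DESeq2 1.42.0, other filters, fits of the contrast's groups only, a replicate block, robust estimation off, genes without opposite-strand overlap, and each library left out.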

Additional observations from a re-analysis of the deposited data

Results flagged for a closer look

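For 9 chains the test of the difference itself found that the change under PEPD over-expression was not the same in T98G and in U251. The difference, as the T98G log2 fold change minus the U251 log2 fold change, was 1.80 for COL1A2, 1.13 for COL18A1, 1.12 for COL12A1, 0.96 for COL6A2, 0.87 for COL6A1 and 0.77 for COL5A2. It was -1.48 for COL4A1, -1.39 for COL13A1 and -0.62 for COL4A2. COL1A2 and COL4A1 passed the test in each line with opposite signs. COL4A2 passed it in U251 alone, and COL5A2, COL6A1, COL6A2, COL12A1, COL13A1 and COL18A1 in T98G alone. COL13A1 rests on 18 counts in T98G PEPD-OE and 42 in T98G NC cells.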

How the results depend on the processing

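Over 23 alternative settings, 10 of the 105 chain-by-comparison values changed sign (to 2 decimals), none of them called, and every count of called chains stayed within 1.5 times its value. When each library was left out in turn, the log2 fold change for PEPD-OE over NC in U251 ran from -0.20 to 0.10 for COL12A1, -0.56 to 0.05 for COL6A3, -0.83 to 0.22 for COL8A1, -0.02 to 0.42 for COL13A1 and -0.09 to 0.22 for COL5A1, and in T98G from -0.33 to 1.48 for COL9A3 (6 counts in T98G). The difference between the lines ran from -0.30 to 2.16 for COL21A1 (1 count in T98G) and -0.62 to 0.05 for COL7A1, and T98G over U251 among PEPD-OE cells from -0.01 to 0.23 for COL4A1 and -0.04 to 0.12 for COL5A2. With library totals alone, COL12A1 was 0.04 in U251, and COL4A1 and COL5A2 were -0.10 and -0.12 between the lines among PEPD-OE cells; the cause was not tested. When each library was left out in turn, 9 to 13 chains were called for T98G PEPD-OE over NC and 2 to 3 for U251 PEPD-OE over NC. The calls were 8 to 10 for the difference between the lines, 19 to 20 between the lines among NC cells and 19 among PEPD-OE cells. Over all genes these fits called 2350 to 3023 in T98G, 440 to 742 in U251 and 2116 to 2389 for the difference. Between the lines they called 3810 to 4510 genes among NC and 4281 to 4853 among PEPD-OE cells. DESeq2 called 9 chains in T98G, 7 higher and 2 lower, where 1181 of all 8773 genes were higher and 912 lower. Same-numbered PEPD-OE and NC libraries did not deviate together (correlations from -0.0420 to 0.0580 over 6 pairs), and with the replicate block the chains called were 13, 3, 9, 20 and 19 in the order above, while all genes called were 2859 in T98G (2837 without the block) and 792 in U251 (750 without it). Over all genes, U251 calls were 415 with DESeq2, 440 without U251 PEPD-OE replicate 2, 449 without U251 NC replicate 1 and 442 without U251 NC replicate 3. Fits of genes without opposite-strand exon overlap test fewer genes and called 1140 in T98G, 245 in U251, 917 for the difference, 1843 among NC and 2043 among PEPD-OE cells. Library totals alone moved the median log2 fold change of all genes to -0.21 in T98G, 0.08 in U251, -0.32 for the difference, 0.12 among NC and -0.21 among PEPD-OE cells. Shares of the library under collagen chains were 1.29% in T98G PEPD-OE, 0.957% in T98G NC, 0.217% in U251 PEPD-OE and 0.231% in U251 NC cells with mitochondrial genes, MALAT1, TALAM1 and BEST1 left out of the total, and 0.968%, 0.767%, 0.155% and 0.167% in the same groups with only chains without opposite-strand overlap. With longest transcript lengths, COL4A2 to COL4A1 was 3.53 in T98G PEPD-OE, 2.64 in T98G NC, 2.31 in U251 PEPD-OE and 3.32 in U251 NC cells, COL6A2 to COL6A1 was 1.41, 1.35, 1.01 and 1.03 in that order, COL5A2 to COL5A1 was 0.160, 0.159 and 1.00 in the first 3 groups, COL6A3 to COL6A1 was 2.27, 2.30 and 0.0165 in the first 3 groups, and COL9A3 to COL9A2 was 2.63 in U251 PEPD-OE cells. The COL6A3 to COL6A1 ratio in U251 PEPD-OE cells rests on 1 library, and the COL9A3 to COL9A2 ratio there on 2. The remaining libraries of that group had fewer than 10 counts of a chain. Libraries under 1000000 counts limit what can be seen of chains near 3 counts, and COL3A1, COL13A1 and COL14A1 should be read with that in view.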
